A study of Mus musculus with 11 samples.

Results

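Genome folding depends on CTCF, a zinc finger protein that binds DNA at fixed sites, and on cohesin, a ring of SMC1, SMC3, a kleisin and a STAG subunit that extrudes chromatin loops until it meets bound CTCF. NIPBL loads and drives the ring, WAPL releases it, and PDS5 proteins hold regulators on it. In the testis, germ cells also make CTCFL (BORIS), a CTCF paralogue, and in meiosis cohesin takes up the germ line subunits REC8, RAD21L, SMC1B and STAG3. The genes described here are Ctcf, Ctcfl and 8 genes of mitotic cohesin, namely the ring subunits Rad21, Smc1a, Smc3, Stag1 and Stag2 and the regulators Nipbl, Wapl and Pds5b. They were taken by gene symbol, 10 of the 22259 genes in the files, for their role in chromatin folding, by a rule that uses no measured value. All 10 were found (Wapl under its older symbol Wapal), and all 10 passed the filter on low counts, with 15139 genes tested in all.

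The study asked what the loss of CCER1, a germline protein of spermatids, does to the testis transcriptome and to chromatin in sperm. RNA of whole adult testes was sequenced in 3 Ccer1-/- and 3 Ccer1+/+ libraries, all labelled untreated. Ccer1-/- mice carried a frameshift deletion in the coding sequence, made with CRISPR-Cas9 in C57BL/6J zygotes and present in every cell, and Ccer1+/+ mice were the wild-type controls. Several deletion lines were bred, of which that with the longest deletion was taken for study of the pathology. The RNA samples are described as independent, and the sources used here do not name the line behind them or give an exact age. Sperm Hi-C samples of the same series were not analysed here, so the values below concern RNA only.

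Each library held 15970289 to 16552947 estimated counts in Ccer1-/- testes and 16259579 to 19621550 in Ccer1+/+ testes. Levels are given as CPM, counts scaled to a common library total with TMM factors. The targeted gene matched the labels, with Ccer1 at 82.1, 93.0 and 88.3 CPM in Ccer1-/- testes, against 438.6, 609.5 and 528.9 CPM in Ccer1+/+ testes (log2 fold change -2.58, SE 0.15, adjusted p = 7.355e-04). It was the only gene called over all genes at an adjusted p below 0.05 by edgeR's quasi-likelihood test with Benjamini-Hochberg adjustment. Ccer1+/+ replicate 1 stood apart from its group: across genes its log2 CPM correlated more closely with the Ccer1-/- libraries (mean r = 0.988) than with the other Ccer1+/+ libraries (mean r = 0.968), which is a description over genes. Results for the folding genes are therefore given with and without it. Germ cell and somatic markers of the testis were present, and 4 of 4 epididymis markers stayed below 0.5 CPM in every library.

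None of the 10 genes differed between genotypes beyond the spread of the replicates. The log2 fold change of Ccer1-/- over Ccer1+/+ was positive for all 10, where 55.4% of all genes tested had a positive value, and it ran between 0.05 for Smc1a and 0.33 for Nipbl with a median of 0.25, against a median of 0.04 over all genes tested. That median depended on single Ccer1+/+ libraries, at 0.47 without replicate 1, 0.04 without replicate 2 (7 of 10 positive) and 0.12 without replicate 3 (9 of 10 positive). 0 of 10 passed the adjusted threshold in edgeR, where 0.00661% of all genes did. 0 of 10 had an unadjusted p below 0.05, against 2.89% of all genes, and DESeq2 likewise gave 0 at either threshold. 0 of 10 had Ccer1-/- libraries wholly above or wholly below the Ccer1+/+ libraries, against 5.2% of genes above and 3.14% below. A whole testis mixes germ cells of every stage with somatic cells, so fewer cells of a type and less RNA per cell cannot be told apart in any of these values.

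**Figure D1:**
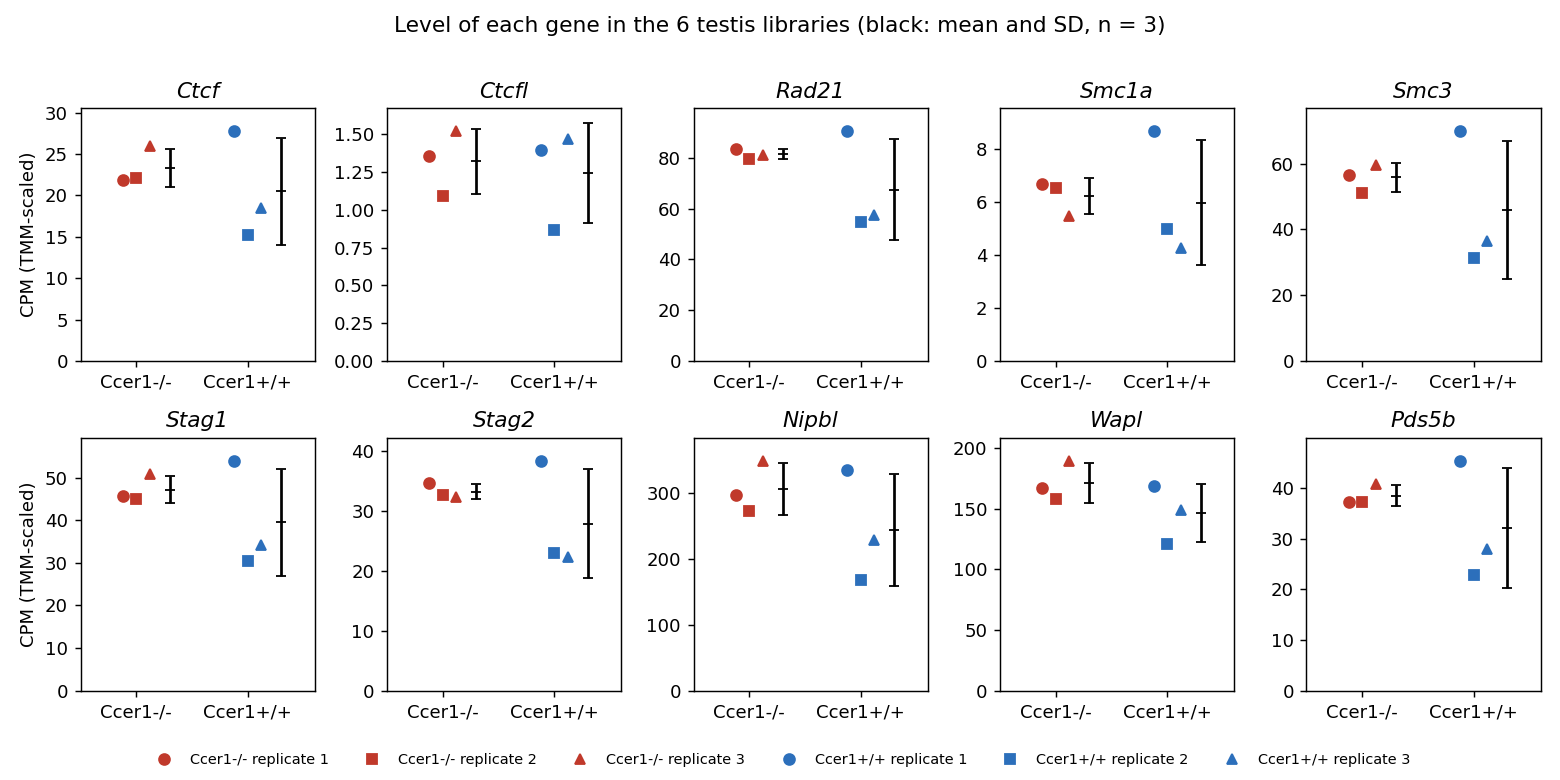
Level in CPM after TMM scaling (y axis, linear, starting at 0) of each of the 10 genes in 3 Ccer1-/- libraries (red, left) and 3 Ccer1+/+ libraries (blue, right), with the mean and SD of each group in black (n = 3). The red points lie close together, and in 7 panels the blue circle, Ccer1+/+ replicate 1, is the highest of the 6 points while the other blue points lie lowest.

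Ctcf (ENSMUSG00000005698, chr8:105636474-105682922 on GRCm38), the gene of the architectural DNA-binding protein itself, had 21.9, 22.2 and 25.9 CPM in Ccer1-/- testes, against 27.7, 15.2 and 18.5 CPM in Ccer1+/+ testes. The Ccer1-/- libraries lay inside the wider Ccer1+/+ range, below replicate 1 and above replicates 2 and 3. The means were 23.3 ± 2.26 CPM in Ccer1-/- and 20.5 ± 6.50 CPM in Ccer1+/+ testes (SD, n = 3 each). The log2 fold change was 0.19 (SE 0.23, 95% interval -0.34 to 0.71, adjusted p = 0.825 in edgeR). Ctcfl (ENSMUSG00000070495, chr2:173093609-173119525), which in mouse is expressed in male germ cells and binds many of the sites of CTCF, was the faintest of the 10. It was counted 22, 18 and 25 times in Ccer1-/- libraries and 28, 14 and 24 times in Ccer1+/+ libraries, or 1.35, 1.09 and 1.52 CPM in Ccer1-/- testes, against 1.40, 0.865 and 1.47 CPM in Ccer1+/+ testes. The groups overlapped over most of their range. Its log2 fold change was 0.08 with a 95% interval of -0.70 to 0.87, so a change of either sign within that interval is not excluded.

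The kleisin gene Rad21 (ENSMUSG00000022314, chr15:51962604-51993538), whose product closes the ring, had 83.6, 79.7 and 81.0 CPM in Ccer1-/- testes, against 90.4, 54.7 and 57.4 CPM in Ccer1+/+ testes. The 3 Ccer1-/- values differed least of any member, with a coefficient of variation of 2.46%, against 29.5% in Ccer1+/+ testes, where replicate 1 was high and the others low. The log2 fold change was 0.27 (SE 0.20, adjusted p = 0.786 in edgeR). Smc3 (ENSMUSG00000024974, chr19:53600396-53645831) encodes the SMC subunit shared by mitotic and meiotic rings. It had 56.6, 51.1 and 59.7 CPM in Ccer1-/- testes, against 69.8, 31.4 and 36.5 CPM in Ccer1+/+ testes, and its log2 fold change was 0.28 (SE 0.28). Its highest library had 2.22 times the level of its lowest, the widest span among the 10, and both of those libraries were Ccer1+/+.

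Smc1a (ENSMUSG00000041133, chrX:152016428-152061973), the SMC1 subunit of somatic cohesin, had 6.70, 6.56 and 5.46 CPM in Ccer1-/- testes, against 8.68, 5.01 and 4.29 CPM in Ccer1+/+ testes. The Ccer1+/+ libraries spanned the whole Ccer1-/- range, and the log2 fold change of 0.05 (SE 0.29) was the smallest among the members. Stag1 (ENSMUSG00000037286, chr9:100597709-100958544), a STAG subunit that contacts CTCF, had 45.7, 45.0 and 50.8 CPM in Ccer1-/- testes, against 53.9, 30.5 and 34.2 CPM in Ccer1+/+ testes. Its X-linked paralogue Stag2 (ENSMUSG00000025862, chrX:42149297-42277186) had 34.6, 32.7 and 32.3 CPM in Ccer1-/- testes, against 38.3, 22.9 and 22.3 CPM in Ccer1+/+ testes. Both STAG genes had a log2 fold change of 0.25 (SE 0.21 for Stag1 and 0.22 for Stag2), and in both, Ccer1+/+ replicate 1 was above and the other Ccer1+/+ libraries were below every Ccer1-/- library.

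Nipbl (ENSMUSG00000022141, chr15:8289824-8465315), the loader and motor partner of cohesin, was the most counted member, at 296.6, 272.8 and 348.9 CPM in Ccer1-/- testes, against 335.4, 167.9 and 228.7 CPM in Ccer1+/+ testes. It also had the highest fold change of the 10 in log2 terms, 0.33 (SE 0.23, adjusted p = 0.786 in edgeR). Ccer1+/+ replicate 1 fell inside the Ccer1-/- range here. Wapl (ENSMUSG00000041408, chr14:34672379-34747983), the factor that opens the ring and frees it from chromatin, had 166.7, 157.7 and 189.4 CPM in Ccer1-/- testes, against 168.6, 121.0 and 149.1 CPM in Ccer1+/+ testes. Its Ccer1+/+ libraries spread less than those of any other member (coefficient of variation 16.4%), replicate 1 again lay inside the Ccer1-/- range, and the log2 fold change was 0.23 (SE 0.15). Pds5b (ENSMUSG00000034021, chr5:150673713-150810669), a partner of both WAPL and the acetylated ring, had 37.2, 37.3 and 40.9 CPM in Ccer1-/- testes, against 45.4, 22.8 and 28.0 CPM in Ccer1+/+ testes. As for Stag1 and Smc3, Ccer1+/+ replicate 1 was highest and replicate 2 lowest, and its log2 fold change was 0.26 (SE 0.24).

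Different genes were compared per kilobase of the longest annotated transcript, a scale that depends on that annotation. On it, the regulators Nipbl and Wapl and the kleisin Rad21 stood highest and Ctcfl lowest. Nipbl averaged 31.2 ± 7.72 CPM per kb over all 6 libraries, Wapl 25.0 ± 3.60 and Rad21 20.7 ± 4.10 (SD, n = 6). Smc3 followed at 10.5 ± 2.99 CPM per kb, Stag1 at 7.01 ± 1.49 and Ctcf at 5.79 ± 1.22. Stag2 at 4.95 ± 1.05 and Pds5b at 4.76 ± 1.13 CPM per kb were near each other, ahead of Smc1a at 1.304 ± 0.332 and Ctcfl at 0.399 ± 0.0784. Rad21 and Smc3, Pds5b and Smc1a, and Smc1a and Ctcfl were the only neighbours in this order whose ranges did not meet. Nipbl was above Wapl in 5 of 6 libraries and Stag2 above Pds5b in 4 of 6, so these pairs do not differ beyond their spread, while every other neighbouring pair kept its order in 6 of 6 libraries. Among the 14460 tested genes with a transcript length, Nipbl stood at percentile 81.4 of the mean level per kilobase, Ctcf at 50.3, Smc1a at 23.3 and Ctcfl at 7.63.

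**Figure D2:**
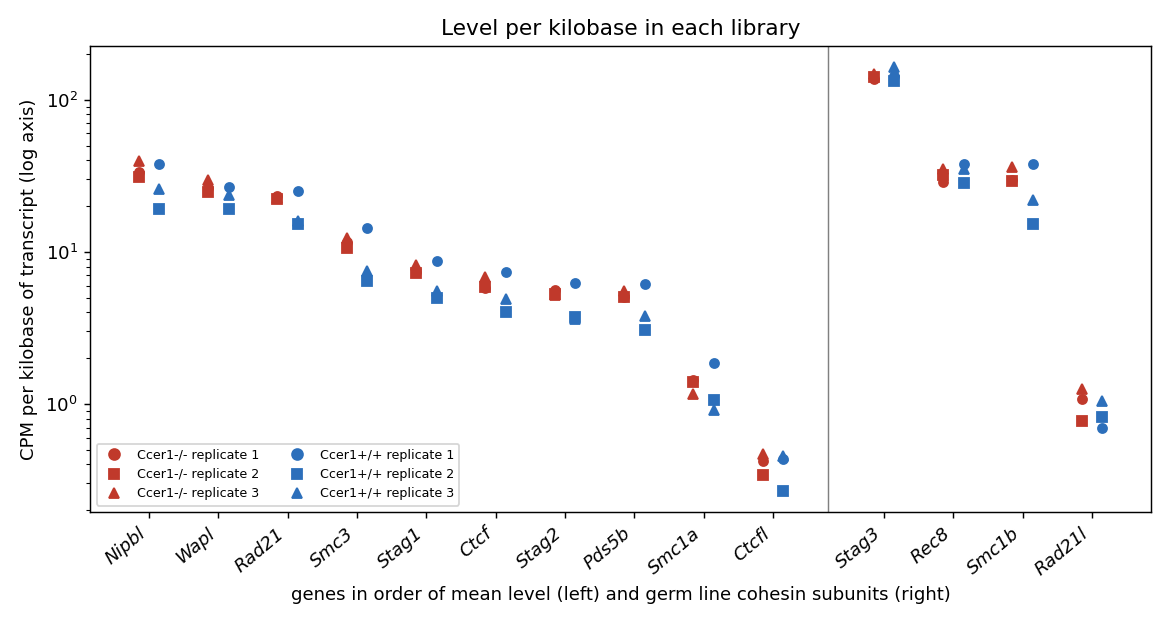
CPM per kilobase of transcript (y axis, log scale) in 3 Ccer1-/- (red) and 3 Ccer1+/+ libraries (blue), for the 10 genes in order of mean level on the left and for 4 germ line cohesin subunits on the right. Stag3 lies above all 10 genes, Rec8 and Smc1b lie near Nipbl, and Rad21l lies between Ctcfl and Smc1a in mean level.

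The germ line partners set the scale for these levels. Stag3 averaged 144.2 CPM per kb over the 6 libraries, Rec8 32.7, Smc1b 28.3 and Rad21l 0.944. Within single libraries, the level per kilobase of Stag3 was 23.2 to 45.3 times that of Stag2, and that of Smc1b was 14.2 to 30.6 times that of Smc1a. For the kleisins, Rec8 was at 1.25 to 2.19 times Rad21, whereas Rad21l was at 0.0283 to 0.0664 times Rad21. Ctcfl was at 0.0595 to 0.0952 times Ctcf, Stag2 at 0.637 to 0.759 times Stag1, Wapl at 0.698 to 1.00 times Nipbl and Pds5b at 0.578 to 0.711 times its paralogue Pds5a. These ratios depend on the transcript lengths used. Pds5b was below Pds5a only per kilobase (7417 against 4146 bases). In counts, its log2 ratio to Pds5a was above 0 in every library, at 0.05 to 0.35.

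A ratio of counts within a library needs no scaling between libraries, and 8 such ratios were compared between genotypes with a two-sided exact permutation test, whose smallest p with 3 against 3 libraries is 0.1. The ranges of the genotypes overlapped for all 8 pairs. The log2 ratio of Rec8 to Rad21 was -0.41, -0.19 and -0.09 in Ccer1-/- testes, against -0.14, 0.17 and 0.41 in Ccer1+/+ testes, a difference of -0.38 (exact permutation p = 0.2, adjusted over 8 pairs 0.64), which was -0.05 once a fitted trend on transcript length and GC was taken out. The overlap came from Ccer1+/+ replicate 1, which lay among the Ccer1-/- libraries. The log2 ratio of Stag3 to Stag2 averaged 4.16 ± 0.11 in Ccer1-/- and 4.51 ± 0.49 in Ccer1+/+ testes (SD, n = 3 each), a difference of -0.35 (exact permutation p = 0.4, adjusted 0.64). With that trend taken out, the difference was 0.03. Smc1b to Smc1a differed by 0.31 in log2 ratio (0.06 with that trend taken out), Wapl to Nipbl by -0.14 and Pds5b to Pds5a by -0.09, each with an exact permutation p of 0.4. The log2 ratio differences of the remaining 3 pairs were -0.12 for Ctcfl to Ctcf (exact permutation p = 0.8), -0.04 for Rad21l to Rad21 (p = 1.0) and 0.0015 for Stag2 to Stag1 (p = 1.0).

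**Figure D3:**
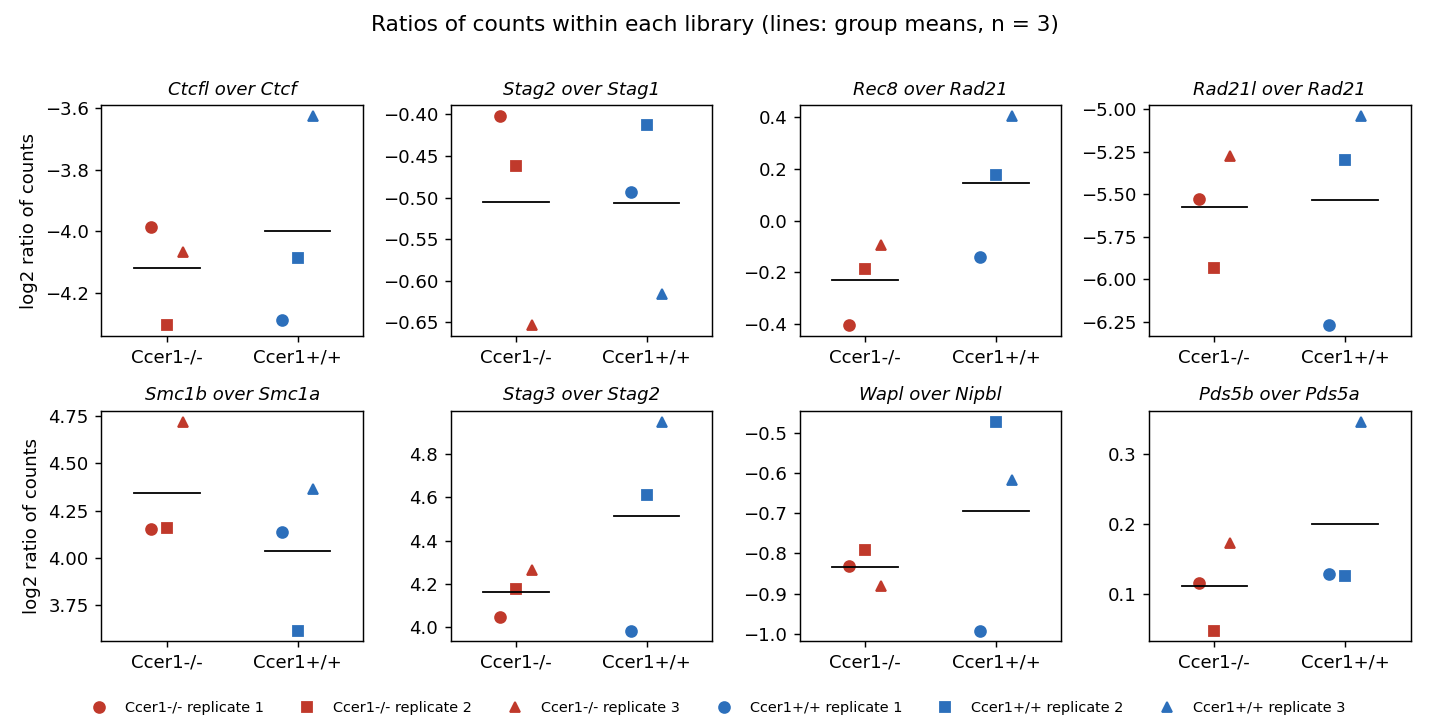
Log2 ratio of counts (y axis, with its own range in each panel) for 8 gene pairs within each library, for 3 Ccer1-/- (red, left) and 3 Ccer1+/+ libraries (blue, right), with black lines at the group means. In all 8 panels the genotypes overlap, and for Rec8 over Rad21 and Stag3 over Stag2 the blue circle, Ccer1+/+ replicate 1, lies among or below the red points.

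For most members the widest spread between libraries lay within the Ccer1+/+ group. Over the 6 libraries, Pearson r of log2 CPM between members ran between 0.426 (Smc1a with Wapl) and 0.993 for the 36 pairs without Ctcfl, and between 0.116 (with Smc1a) and 0.826 for the 9 pairs with Ctcfl, as a description with no test. Ccer1+/+ replicate 1 was the highest of the 6 libraries for 7 of 10 genes (all but Ctcfl, Nipbl and Wapl), against 18.3% of all genes. Ccer1+/+ replicate 2 was the lowest for 8 of them and replicate 3 for the other 2, Smc1a and Stag2. In 9 of 10, all but Ctcfl, every Ccer1-/- library was above both Ccer1+/+ replicates 2 and 3, as was the case for 29.6% of all genes tested. On the log2 scale, the median deviation of the members from the mean of the 6 libraries was 0.13, 0.07 and 0.25 in Ccer1-/- testes, against 0.35, -0.48 and -0.30 in Ccer1+/+ testes. The same median over all genes tested stayed between -0.05 and 0.05 in every library.

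**Figure D4:**
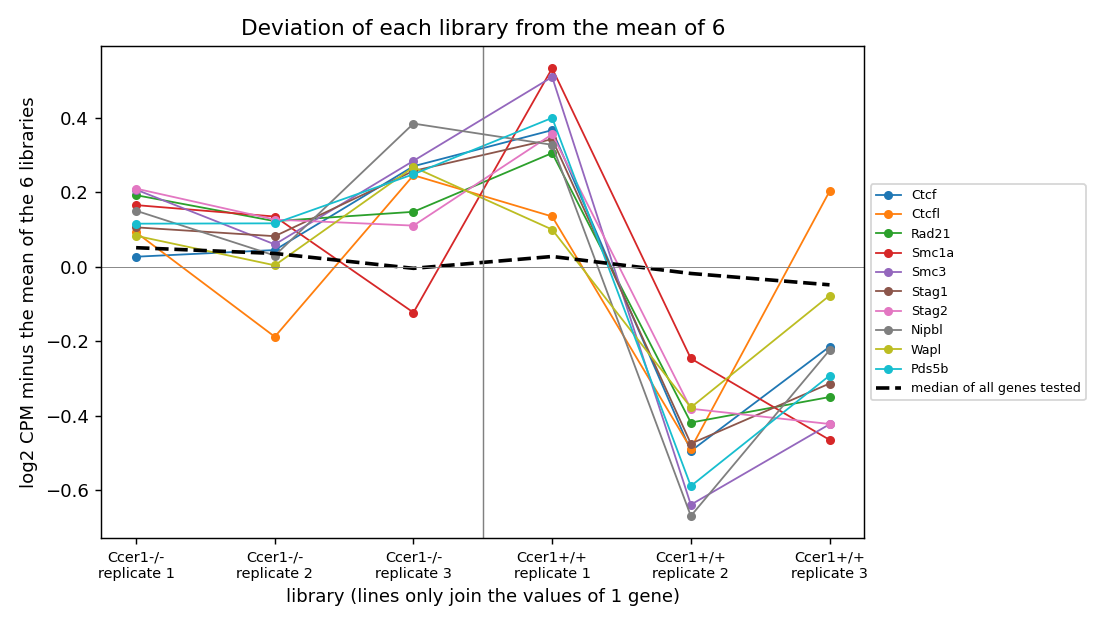
Log2 CPM of each gene minus its mean over the 6 libraries (y axis), in 3 Ccer1-/- libraries (left) and 3 Ccer1+/+ libraries (right), with the median of all genes tested as a dashed line. 9 of the 10 lines, all but that of Ctcfl, are lower in Ccer1+/+ replicates 2 and 3 than in any Ccer1-/- library, and all 10 are above 0 in Ccer1+/+ replicate 1.

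Without Ccer1+/+ replicate 1, 6 of the 10 genes passed the adjusted threshold, all higher in Ccer1-/- testes. They were Smc3 (log2 fold change 0.64, adjusted p = 0.00933 in edgeR), Nipbl (0.55, adjusted p = 0.0458), Pds5b (0.53, adjusted p = 0.0238), Stag2 (0.48, adjusted p = 0.0175), Stag1 (0.47, adjusted p = 0.0207) and Rad21 (0.47, adjusted p = 0.00986). In the same fit 9.21% of all genes were called higher and 12.5% lower. The log2 fold changes of Ctcf (0.40, adjusted p = 0.0968), Smc1a (0.35, adjusted p = 0.265), Wapl (0.27, adjusted p = 0.151) and Ctcfl (0.11, adjusted p = 0.888) did not pass. Set against Ccer1+/+ replicate 1 alone, a comparison chosen after seeing the data, Ccer1-/- testes had negative log2 fold changes for 9 of 10 genes with a median of -0.22, Smc1a lowest at -0.50 and Wapl at 0.00. The direction of the difference between genotypes thus depended on which Ccer1+/+ libraries were used.

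The transcripts of the members are long and mostly poor in G and C. By the longest protein-coding transcript of each gene, all 10 were longer than the median over tested genes (2950.5 bases), between 3217 bases for Ctcfl and 8815 for Nipbl. Their GC content ran between 38.1% for Stag2 and 52.9% for Ctcfl, and 9 of 10, all but Ctcfl, lay below the median of 50.3% for tested genes. Across genes, log2 CPM in Ccer1+/+ replicate 1, minus the mean of replicates 2 and 3, had a Spearman correlation of -0.684 with transcript GC content, a description over genes of single libraries. The part of transcript composition in the values of the members was not tested. That difference was positive for all 10 members, 0.28 for Ctcfl to 1.04 for Smc3 with a median of 0.75, and a curve fitted to length and GC content over all genes gave a median of 0.64 for the same transcripts. The curve was far from the value of single members, with 0.34 against a measured 0.89 for Smc1a, 0.74 against 0.33 for Wapl and -0.09 against 0.28 for Ctcfl. With such a curve removed from each library, the genotype difference was positive for 6 members and negative for 4, with a median log2 fold change of 0.03 and 0 genes of the 10 called. The members at either end were then Nipbl at 0.14 and Stag2 at -0.13 on the log2 scale.

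**Figure D5:**
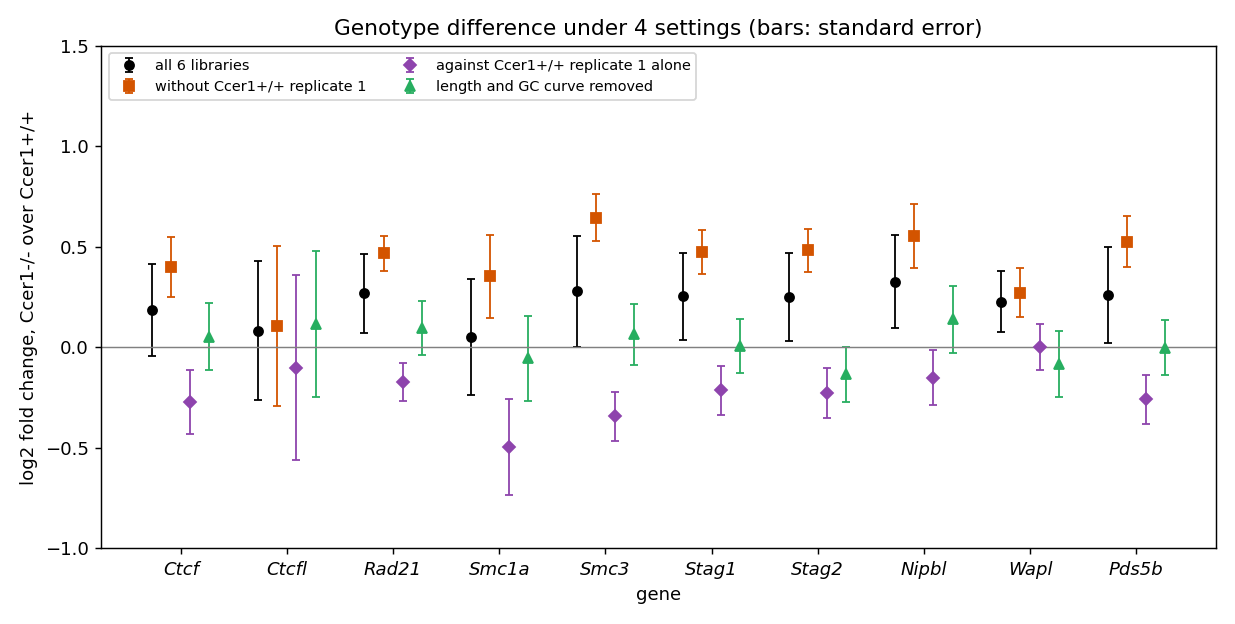
Log2 fold change of Ccer1-/- over Ccer1+/+ (y axis, bars: standard error) for the 10 genes with all 6 libraries (black), without Ccer1+/+ replicate 1 (orange), against Ccer1+/+ replicate 1 alone (purple) and with the trend on length and GC content taken out of each library (green). The black points lie between 0.05 and 0.33, the orange ones higher, 9 of the 10 purple ones below 0, and the green ones between -0.13 and 0.14.

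For the 6 genes with a matched promoter, the genomic sequence before the start site was richer in G and C than the transcript. RefSeq promoters (GRCm38.p6) were matched for 6 of the 10 genes, Ctcf, Smc1a, Smc3, Stag1, Wapl and Pds5b, and the 250 bases upstream of each start site were searched on both strands for the GC box GGGCGG, the core bound by Sp1-family factors (CCGCCC when read on the other strand). All 6 held at least 1 copy, as did 32.7% of all promoters in the table and 54.1% of those of genes tested. Their upstream GC content was 56.8% to 77.6% with a median of 69.4%, against a median of 59.2% for the genes tested. Smc1a, at 56.8%, was the only 1 of the 6 below that median. The following stretches of 60 bases show the GC box, in capitals, in the 4 promoters where it lies outside the annotated gene, each on the plus strand and read 5′ to 3′. They lie at chr8:105636414-105636473 for Ctcf, chrX:152016275-152016334 for Smc1a, chr19:53600334-53600393 for Smc3 and chr5:150673577-150673636 for Pds5b. A match is a description of letters and was not tested for binding.
Ctcf: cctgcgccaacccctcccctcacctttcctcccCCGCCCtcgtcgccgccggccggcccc
Smc1a: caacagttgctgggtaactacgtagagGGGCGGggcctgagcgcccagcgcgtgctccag
Smc3: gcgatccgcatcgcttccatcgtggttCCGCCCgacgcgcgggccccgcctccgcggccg
Pds5b: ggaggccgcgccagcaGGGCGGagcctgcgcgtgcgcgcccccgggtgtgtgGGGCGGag

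The nearest patterns to that of Ctcf over the 6 libraries, by Pearson r of log2 CPM, were those of Ift81 (r = 0.999), a component of the intraflagellar transport machinery, Rbm26 (r = 0.998) and Mtdh (r = 0.997). Ift81 had 91.0, 94.2 and 114.3 CPM in Ccer1-/- testes, against 122.4, 56.2 and 73.1 CPM in Ccer1+/+ testes, again with Ccer1+/+ replicate 1 highest. Likeness of this order was common, since 7.58% of all genes tested had r over 0.95 with Ctcf. The 3 genes nearest to Ctcfl were Nras (r = 0.991), a small GTPase, Tfg (r = 0.989) and Smarce1 (r = 0.989), a subunit of SWI/SNF remodelling complexes, and 0.423% of genes had r over 0.95 with it. These r values describe 6 libraries and carry no test.

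Of 37 other genes of cohesin regulation, germ line cohesin, condensin, the SMC5/6 complex, architectural factors and testis targets of CTCFL, 36 could be tested (not Hdac8, the deacetylase of SMC3), and 0 passed the adjusted threshold or an unadjusted p below 0.05 in edgeR. Their log2 fold changes were positive for 20 and negative for 16, with a median of 0.06. Among 10 tested cohesin regulators the median was 0.25, and the smallest p was that of Sgo2a (log2 fold change 0.47, unadjusted p = 0.111), a shugoshin that protects centromeric cohesin. Among the germ line subunits it was that of Smc1b (log2 fold change 0.33, adjusted p = 0.787 in edgeR). Smc1b had 119.6, 117.7 and 144.9 CPM in Ccer1-/- testes, against 152.9, 61.7 and 88.8 CPM in Ccer1+/+ testes. Rec8 (log2 fold change -0.07) and Stag3 (-0.06) spread less. Rec8 had 63.14, 69.88 and 75.95 CPM in Ccer1-/- testes, against 82.01, 61.75 and 75.98 CPM in Ccer1+/+ testes. As for Smc1b, Ccer1+/+ replicate 1 was highest and replicate 2 lowest for Rec8. Stag3 had 573.0, 591.2 and 621.6 CPM in Ccer1-/- testes, against 606.6, 560.3 and 689.7 CPM in Ccer1+/+ testes. The 8 condensin subunits had a median of 0.21 and the 6 SMC5/6 genes one of 0.21, where Ncapg (0.36) and Smc6 (0.37) had the smallest p. Their unadjusted p in edgeR was 0.139 for Ncapg and 0.176 for Smc6. With the length and GC curve removed from each library, the median was 0.107 for the cohesin regulators, 0.016 for condensin and 0.005 for the SMC5/6 genes. Over all 36 genes it was then 0.003, with 19 positive and 17 negative.

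The 6 other architectural factors, Maz, Yy1, Zfp143, Patz1, Chd8 and Adnp, all had log2 fold changes below 0 (median -0.17). The smallest p was that of Maz, a zinc finger factor that insulates together with CTCF, at 63.1, 62.2 and 61.1 CPM in Ccer1-/- testes, against 61.7, 83.0 and 80.2 CPM in Ccer1+/+ testes (log2 fold change -0.27, unadjusted p = 0.097). Here Ccer1+/+ replicate 1 was low rather than high, and lay within the Ccer1-/- range. With the length and GC curve removed, Maz was at -0.085 on the log2 scale. The 6 factors then had a median of -0.12, with 1 positive and 5 negative. Gal3st1 and Prss50, which depend on CTCFL in mouse testis, had log2 fold changes of -0.39 and -0.25 (unadjusted p = 0.282 for Prss50). Without Ccer1+/+ replicate 1, 8 of the 36 genes were called higher and 5 lower in edgeR, where 9.21% of all genes were called higher and 12.5% lower. Those called higher included Pds5a (log2 fold change 0.66), Smc1b (0.69) and the condensin subunits Smc2 (0.87) and Smc4 (0.71), and those called lower included Mau2 (-0.55), the partner of NIPBL in the loader, the separase gene Espl1 (-0.44) and Maz (-0.46).

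Several meiotic markers had the library pattern of the cohesin genes. Of 7 spermatocyte markers, Sycp1, a protein of the synaptonemal complex, had 40.1, 40.6 and 56.3 CPM in Ccer1-/- testes, against 66.8, 17.8 and 24.5 CPM in Ccer1+/+ testes. Ccer1+/+ replicate 1 was also the highest library for Sycp3, Hormad1 and Meiob, but not for Dmc1, Spo11 or Piwil1. Spo11 had 42.7, 45.0 and 55.9 CPM in Ccer1-/- testes, against 43.3, 39.2 and 48.8 CPM in Ccer1+/+ testes. The median log2 fold change of the 7 was 0.33, and without Ccer1+/+ replicate 1 it was 0.75. That last fit called 4 of them higher and 1, Piwil1, lower in edgeR, where 9.21% of all genes were called higher and 12.5% lower. With the length and GC curve removed from each library, the median of the 7 was -0.015, with 3 positive and 4 negative. Their summed level, most of it from Piwil1, was 676.5 to 746.6 CPM in Ccer1-/- and 748.5 to 791.9 CPM in Ccer1+/+ testes, and none of the 7 was below 0.5 CPM everywhere. Piwil1 had 484.4, 478.5 and 486.6 CPM in Ccer1-/- testes, against 490.9, 656.9 and 658.6 CPM in Ccer1+/+ testes. With all 6 libraries it was thus lower in Ccer1-/- testes without overlap, as were 3.14% of all genes tested. Its log2 fold change was -0.32 (adjusted p = 0.786 in edgeR). The 8 spermatogonia markers summed to 91.4 to 113.5 CPM in Ccer1-/- and 93.4 to 106.1 CPM in Ccer1+/+ testes. Of these, 7 could be tested, and 0 were called with all 6 libraries or without Ccer1+/+ replicate 1.

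Markers of other stages and cell types did not all follow that pattern. The 6 round spermatid markers summed to 646.8 to 693.8 CPM in Ccer1-/- and 682.8 to 759.2 CPM in Ccer1+/+ testes. 2 of them, Catsper4 and Sun5, were lower in every Ccer1-/- library than in any Ccer1+/+ library, as were 3.14% of all genes tested. The 6 elongating spermatid markers summed to 9211 to 9590 CPM in Ccer1-/- and 8532 to 9815 CPM in Ccer1+/+ testes. 2 of them, Akap4 and Smcp, were higher in Ccer1-/- testes without overlap, as were 5.2% of all genes tested. None of these 12 genes passed the adjusted threshold in edgeR. Some somatic markers were low in replicate 3 of both genotypes. Peritubular myoid markers summed to 91.0, 100.7 and 28.7 CPM in Ccer1-/- testes, against 75.1, 119.9 and 27.7 CPM in Ccer1+/+ testes. Macrophage markers likewise summed to 55.6, 50.3 and 18.8 CPM in Ccer1-/- testes, against 54.0, 42.6 and 16.1 CPM in Ccer1+/+ testes. Sertoli cell and endothelial sums were also lowest in replicate 3 of both genotypes. Leydig cell and red blood cell sums were lowest in replicate 3 of Ccer1-/- testes but in replicate 1 of Ccer1+/+ testes. In Ccer1+/+ testes they were 934.5, 1823 and 1070 CPM for Leydig cells and 32.03, 62.86 and 35.26 CPM for red blood cells. Of the 10 folding genes, Smc1a and Stag2 were lowest in replicate 3 within each genotype, and the other 8 were not. For Stag2, replicates 2 and 3 were close, at 32.7 and 32.3 CPM in Ccer1-/- and 22.9 and 22.3 CPM in Ccer1+/+ testes. For Smc1a they were at 6.56 and 5.46 CPM in Ccer1-/- and 5.01 and 4.29 CPM in Ccer1+/+ testes. The part of germ cell composition in the values of the folding genes was not tested.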

How the data were processed

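Adult testis RNA was measured in 6 libraries, grouped by the genotype in the sample labels. The deposited files give estimated counts per Ensembl gene made by the authors, without scaling between libraries. All values of the 10 genes were whole numbers, while 2214 to 2342 values per library were not and were rounded. Tools named in the submitters' processing notes were StringTie 1.3.1, HISAT2, Bowtie2 2.2.8 and fastp 0.18.0, and the build named there was mm10 (GRCm38). The sources used here do not say how reads were counted or with which strand setting, so reads of overlapping or antisense genes cannot be separated.

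Symbols were found for 20314 of 22259 gene IDs. Gene positions and promoters came from RefSeq tables of GRCm38.p6. Length and GC content are those of the longest protein-coding transcript of each Ensembl gene in GENCODE M1, an annotation of the earlier build NCBIM37, matched by gene ID for 14460 of the genes tested (95.5%). Genes were filtered with filterByExpr (minimum count 10, minimum total 15), scaled with TMM and tested two-sided with edgeR 4.0.16 (robust quasi-likelihood F test, R 4.3.3), with Benjamini-Hochberg adjustment over all 15139 genes and calls at an adjusted p below 0.05. Intervals are 95% intervals from the fitted standard errors. Within-library ratios used counts plus 0.5. DESeq2 1.42.0, other scalings and filters, the replicate block, a spline curve with 5 degrees of freedom on length and GC content, and each library left out were alternatives. The fits were tested on simulated data. The labels do not say whether the replicates were separate animals, so p-values measure only the spread between these samples.

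The genes and all lists were chosen with earlier results of these data known. Named were every one of the 10 genes, the genes past the adjusted threshold or otherwise the gene with the smallest p in each other list of folding genes, the 3 genes most like Ctcf and Ctcfl in pattern, and Ccer1. Other genes and markers were named after their values were seen.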

Additional observations from a re-analysis of the deposited data

How the results depend on the processing

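With all 6 libraries, none of the 10 genes was called under any scaling, filter, test or block. Over all genes, 0 were called higher and 1 lower in the main fit, under the other scalings and filters, and with the replicate block. The counts over all genes were 1 higher and 4 lower with DESeq2's test, 2 lower with the length and GC curve and 4 lower with the replicate block together with that curve. Leaving out each library in turn gave 0 to 1414 genes higher and 1 to 1923 lower, 0 to 6 of the 10 genes higher, and 0 to 8 other folding genes higher and 0 to 5 lower. Every upper bound came from the fit without Ccer1+/+ replicate 1. The cause of these shifts was not tested.

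The replicate block left 0 of the 10 genes called and 10 positive, with a median log2 fold change of 0.30. Among the other folding genes, Sgo2a had an unadjusted p of 0.0246 in edgeR with the block (adjusted p = 0.589), against 0.111 without it. Deviations of same-numbered libraries correlated at 0.06, 0.35 and 0.47, and not every library correlated best with its own number. Since 1 of these is below 0.1, the numbers were not taken as pairs. Peritubular myoid and macrophage markers were nonetheless low in replicate 3 of both genotypes, which did not hold for every somatic list. With the curve, the sign of the log2 fold change turned for Smc1a (-0.0556), Stag2 (-0.13), Wapl (-0.0829) and Pds5b (-0.0011), and with block and curve for Smc1a (-0.0383), Stag2 (-0.13), Wapl (-0.0712) and Pds5b (-0.0014), leaving 6 genes positive in each. Against Ccer1+/+ replicate 1 alone the median was -0.22, with Ctcf at -0.27, Ctcfl -0.10, Rad21 -0.17, Smc1a -0.50, Smc3 -0.34, Stag1 -0.21, Stag2 -0.23, Nipbl -0.15 and Pds5b -0.26. That fit has 1 Ccer1+/+ library, assumed to vary like the others. With a library left out, Smc1a ranged between -0.18 and 0.35, Ctcfl between -0.16 and 0.17, Ctcf between -0.0318 and 0.40 and the median of the 10 between 0.04 and 0.47.

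With the curve removed, the log2 ratio differences turned to 0.0865 for Ctcfl to Ctcf, -0.14 for Stag2 to Stag1 and 0.0267 for Stag3 to Stag2, and shrank to -0.05 for Rec8 to Rad21 and 0.06 for Smc1b to Smc1a. With a library left out, those differences ranged between -0.26 and 0.0682 for Ctcfl to Ctcf, between -0.0528 and 0.0754 for Stag2 to Stag1 and between -0.41 and 0.21 for Rad21l to Rad21. Ctcfl, with 14 to 28 counts per library, is limited by depth.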
